A study of Homo sapiens with 6 samples.

Results

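The genes described here are 10 that act inside the endoplasmic reticulum (ER) or at its membrane, out of 31762 genes in the count table. They are the lumenal chaperones HSPA5, HSP90B1, CALR, HYOU1 and SDF2L1, the membrane chaperone CANX, the disulfide isomerases PDIA4 and PDIA6, the co-chaperone DNAJB9, and HERPUD1, a membrane protein of ER-associated degradation. They were chosen by gene symbol, each symbol matched 1 row, and all 10 passed the filter on low counts. RNA was sequenced from H460, an established line of human large cell lung carcinoma, labelled wild type and grown in RPMI-1640 medium with fetal bovine serum. The 2 groups were 3 libraries of control cells and 3 libraries of cells given 20 µM fluoxetine, a selective serotonin reuptake inhibitor used as an antidepressant, for 24 h. What the control cells received in place of the drug was not given in the sources used here. The study used this comparison to look for how the drug acts on these cells. The labels do not say that the 3 libraries of a group came from separate cultures, so p-values measure only the spread between these libraries, which may be technical.

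Proteins that enter the secretory pathway fold in the ER with the help of these chaperones, and proteins that fail to fold are pulled back to the cytosol and destroyed by the proteasome, a route called ER-associated degradation. When unfolded protein builds up, the sensors ATF6, IRE1 (gene ERN1) and PERK (gene EIF2AK3) start the unfolded protein response. ATF6 and XBP1, the factor made through IRE1, are known to raise transcription of ER chaperones, while PERK acts through the factors ATF4 and CHOP (gene DDIT3). The promoter elements known for the first of these routes are the ER stress response elements ERSE, the letters CCAAT and CCACG with 9 bases of any kind between them, and ERSE-II, the letters ATTGG and CCACG with 1 base between them.

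Of the 10 genes, 3 rose with fluoxetine and 0 fell. DNAJB9 rose 1.66-fold, HERPUD1 1.53-fold and CANX 1.22-fold. The other 7, among them HSPA5, did not pass the test. A gene was called where edgeR's quasi-likelihood test over 15646 genes gave an adjusted p under 0.05, at any fold change. Of all genes tested, 13.1% were called, 7.76% higher and 5.32% lower.

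The promoters are shown first because 8 of the 10 genes held an exact match to one of the ERSE elements. The windows ran from 250 bases before to 50 bases after each start site of transcription in RefSeq on GRCh38.p14, all 10 symbols matched, and both strands were searched. ERSE was found in 0.0769% of the 35116 windows of 300 bases of all genes, or in 0.0916% of the 27305 gene symbols. It was found in 5 of the 10 genes. ERSE-II was found in 0.0541% of the windows, or 0.0696% of the symbols, and in 3 of the 10. These elements are the ones known for the route to ER chaperones, so the matches are a description and no test. In these sequences, read in the direction of the gene, capitals mark the fixed letters of the element. Where the element lay on the opposite strand, these appear as CGTGG and ATTGG for ERSE and as CGTGG and CCAAT for ERSE-II.
HSPA5: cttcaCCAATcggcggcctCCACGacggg
HSP90B1 upstream copy: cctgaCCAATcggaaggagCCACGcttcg
HSP90B1 downstream copy: gggtgCGTGGtgcggcgcgATTGGtgggt
CALR: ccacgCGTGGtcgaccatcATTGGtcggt
CANX: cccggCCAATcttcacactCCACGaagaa
PDIA6: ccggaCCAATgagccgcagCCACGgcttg
SDF2L1: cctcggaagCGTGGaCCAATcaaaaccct
HYOU1 proximal copy: ggcctgggaCGTGGtCCAATgagtacgcg
HYOU1 distal copy: gccccgtgaCGTGGtCCAATcccaggccg
HERPUD1: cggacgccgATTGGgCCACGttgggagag

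The sequences lie on GRCh38.p14 at chr9:125241386-125241414 on the minus strand for HSPA5, at chr12:103930211-103930239 and chr12:103930316-103930344 on the plus strand for HSP90B1, and at chr19:12938379-12938407 on the plus strand for CALR. Those of CANX and PDIA6 lie at chr5:179698773-179698801 on the plus strand and chr2:10812848-10812876 on the minus strand. The ERSE-II matches lie at chr22:21642105-21642133 on the plus strand for SDF2L1, at chr11:119057265-119057293 and chr11:119057371-119057399 on the minus strand for HYOU1, and at chr16:56932016-56932044 on the plus strand for HERPUD1. By GENCODE release 29, the matches of HSP90B1 and CANX fall in exons of the same gene and that of PDIA6 in an intron of its gene. The others lie upstream of their gene.

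The element began 66 bases before the start site in HSPA5, 86 in PDIA6, 194 and 89 in HSP90B1, 225 in CALR, 188 in SDF2L1, 79 and 185 in HYOU1 and 117 in HERPUD1. In CANX it began 189 bases before the furthest of the 3 start sites whose windows held it. No exact match was found in the windows of PDIA4 or DNAJB9. The shorter element TGACGTGG, called UPRE, is known as a site of XBP1 and ATF6. It occurred in 0.729% of all windows and 0.927% of all symbols. Of the 10 genes, only HYOU1 held it, where it overlapped the distal ERSE-II copy. TTGCATCA is a spelling of the C/EBP-ATF response element (CARE), through which ATF4 and CHOP act. It occurred in 0.866% of all windows, in 1.08% of all symbols and in HERPUD1 alone of the 10. That HERPUD1 match began 176 bases before the start site, at chr16:56931955-56931984 on the plus strand, and its 8 letters are the capitals here.
HERPUD1 second element: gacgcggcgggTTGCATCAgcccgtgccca

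**Figure D1:**
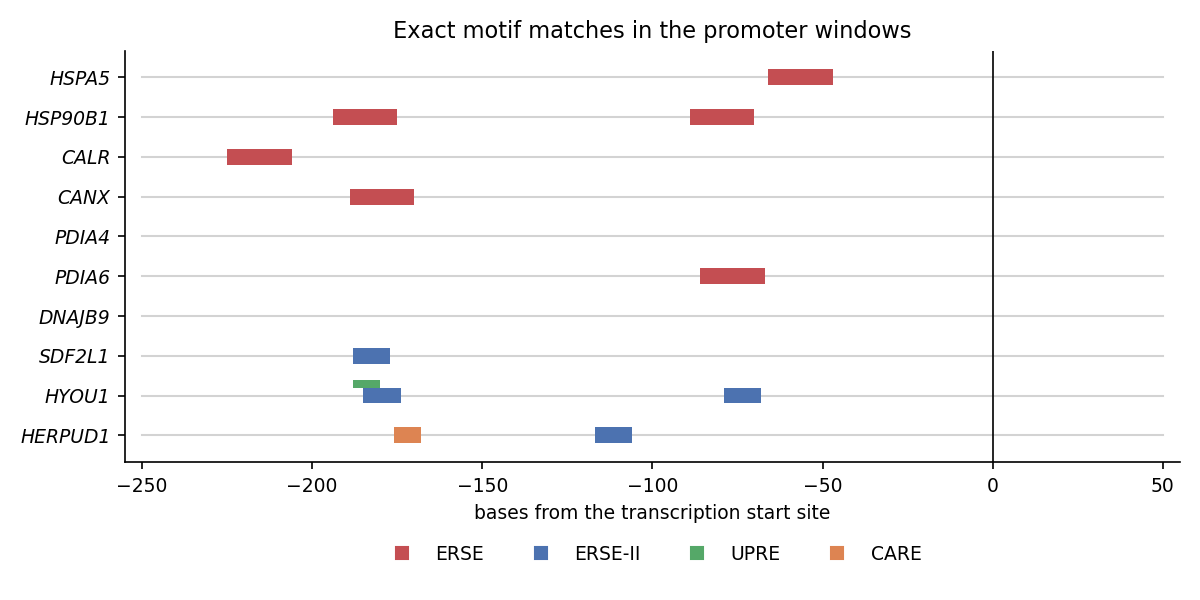
Exact matches to ERSE, ERSE-II, UPRE and CARE in the promoter windows of the 10 genes, by distance in bases from the start site of transcription (0, vertical line; for CANX, the furthest of its 3 start sites with a match). ERSE lies in 5 genes and ERSE-II in 3, and the rows of PDIA4 and DNAJB9 are empty.

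HERPUD1 (ENSG00000051108, chr16:56932048-56944863, plus strand) anchors the degradation machinery in the ER membrane and is itself known as a target of the unfolded protein response. Its level was 45.4, 46.7 and 43.9 CPM (counts scaled by library size, with TMM factors) in control replicates 1, 2 and 3, and 67.6, 71.3 and 69.2 CPM in fluoxetine replicates 1, 2 and 3. Every fluoxetine library lay above every control library, and the gap between the groups was wider than either group. The mean was 45.3 ± 1.40 CPM in control cells and 69.3 ± 1.84 CPM in fluoxetine (SD, n = 3 each). This is a log2 fold change of 0.61 (SE 0.08, 95% interval 0.44 to 0.78), for which edgeR's quasi-likelihood test gave an adjusted p = 0.000831. It rested on 896 to 1218 counts per library. HERPUD1 ranked 163 by p-value among the 15646 genes tested.

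DNAJB9 (ENSG00000128590, chr7:108569568-108574850, plus strand) encodes ERdj4, a J-domain partner of HSPA5 that also restrains IRE1. It stood at 8.62, 9.27 and 8.5 CPM in the control libraries and at 14.3, 16 and 13.6 CPM in the fluoxetine libraries. The groups were again apart, on 178 to 269 counts per library. The log2 fold change was 0.74 (SE 0.12, 95% interval 0.47 to 1.0), with an adjusted p = 0.00363 in edgeR. Its exons share 99 bases with PNPLA8 and 183 bases with THAP5, which both lie on the opposite strand, out of 2837 exon bases. PNPLA8 stood at 15.97, 20.7 and 22.3 CPM in the control libraries and 39.1, 40.03 and 38.1 CPM in the fluoxetine libraries and was called higher, by 0.99 on the log2 scale, while THAP5 changed by 0.09 and was not called. Whether the counting used strand was not given in the sources used here, and the part of reads from PNPLA8 in the DNAJB9 result was not tested.

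CANX (ENSG00000127022, chr5:179678628-179730925, plus strand) encodes calnexin, the membrane-bound lectin that holds newly made glycoproteins. Control libraries held 2019, 2057 and 2310 CPM, and fluoxetine libraries held 2588, 2441 and 2776 CPM. The groups did not overlap, with control replicate 3 the nearest to fluoxetine, and fluoxetine replicate 2 the nearest to control. The log2 fold change was 0.29 (SE 0.08, 95% interval 0.11 to 0.47), with an adjusted p = 0.0412 in edgeR. This call lay close to the threshold. It was lost with RLE scaling (log2 fold change 0.26, adjusted p = 0.0611 from edgeR), and without fluoxetine replicate 1, fluoxetine replicate 3, control replicate 1 or control replicate 2, where edgeR's adjusted p was 0.163, 0.248, 0.179 and 0.211. HERPUD1 and DNAJB9 were called in all 6 fits with a library left out and in all 8 other fits, with log2 fold changes of 0.56 to 0.64 and 0.63 to 0.76.

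The other 7 genes did not pass the test. HSPA5 (ENSG00000044574, chr9:125234853-125241330, minus strand) encodes BiP, the Hsp70 of the ER lumen that binds exposed hydrophobic stretches and keeps the stress sensors inactive. It stood at 2066, 1926 and 1837 CPM in the control libraries and at 1949, 2159 and 2025 CPM in the fluoxetine libraries. The groups overlapped, since control replicate 1 lay above fluoxetine replicates 1 and 3. The log2 fold change was 0.07 (SE 0.08, 95% interval -0.09 to 0.24), with an adjusted p = 0.588 in edgeR. In percent, the fitted change was 5.22%, with an interval from -6.23% to 18.1%. It rested on 32098 to 51001 counts per library.

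HSP90B1 (ENSG00000166598, chr12:103930107-103953645, plus strand) encodes GRP94, the Hsp90 of the ER. Its level was 1400.5, 1309 and 1396 CPM in the control libraries and 1475.5, 1543 and 1534 CPM in the fluoxetine libraries. Every fluoxetine library lay above every control library, by a log2 fold change of 0.15 (SE 0.07) that had an unadjusted p = 0.0483 and an adjusted p = 0.170 from edgeR. HYOU1 (ENSG00000149428, chr11:119044189-119057202, minus strand), the large GRP170 that exchanges nucleotide on HSPA5, stood at 243, 254 and 263 CPM in the control libraries. In the fluoxetine libraries it stood at 281, 259 and 309.9 CPM, so that fluoxetine replicate 2 fell between control replicates 2 and 3. Its log2 fold change was 0.16 (SE 0.08), with an adjusted p = 0.214 from edgeR. HSP90B1 shares 121 exon bases with C12orf73 and 105 with TTC41P on the opposite strand, which held means of 363 and 29.2 counts per library. Its copies HSP90B2P and HSP90B3P held 9.50 and 4.17.

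CALR (ENSG00000179218, chr19:12938578-12944489, plus strand) encodes calreticulin, the lumenal counterpart of calnexin and a store of calcium. It was at 724, 645 and 617 CPM in the control libraries and at 714, 789.6 and 756 CPM in the fluoxetine libraries. Control replicate 1 lay above fluoxetine replicate 1, so the groups overlapped, and the log2 fold change of 0.19 (SE 0.08) had an adjusted p = 0.153 from edgeR. PDIA6 (ENSG00000143870, chr2:10783391-10837977, minus strand), an isomerase that works with HSPA5 and on IRE1, was at 418, 408 and 421 CPM in the control libraries and 452, 467 and 479 CPM in the fluoxetine libraries. Its groups were apart, with the smallest spread of the 10 genes in the control group (a coefficient of variation of 1.64%), and its log2 fold change of 0.16 (SE 0.06) had an adjusted p = 0.118 from edgeR. PDIA6 shares 1033 exon bases with ATP6V1C2 on the opposite strand, a gene with a mean of 17.8 counts per library.

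PDIA4 (ENSG00000155660, chr7:149003062-149028641, minus strand), the isomerase ERp72, was at 495, 469 and 473 CPM in the control libraries and 479.8, 522 and 519.75 CPM in the fluoxetine libraries. The groups overlapped, and the log2 fold change of 0.08 (SE 0.07, 95% interval -0.07 to 0.23) had an adjusted p = 0.477 from edgeR. SDF2L1 (ENSG00000128228, chr22:21642261-21644298, plus strand), a small lumenal protein that keeps chaperone clients soluble together with J-domain proteins, was the only one of the 10 with a negative fitted change. It stood at 12.9, 9.95 and 8.07 CPM in the control libraries and 8.08, 10.2 and 6.87 CPM in the fluoxetine libraries. It rested on 118 to 285 counts per library, and its coefficient of variation of 23.7% in the control group was the largest of the 10 genes. The interval around its log2 fold change of -0.30 was wide, from -0.74 to 0.14 (adjusted p = 0.366, edgeR).

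**Figure D2:**
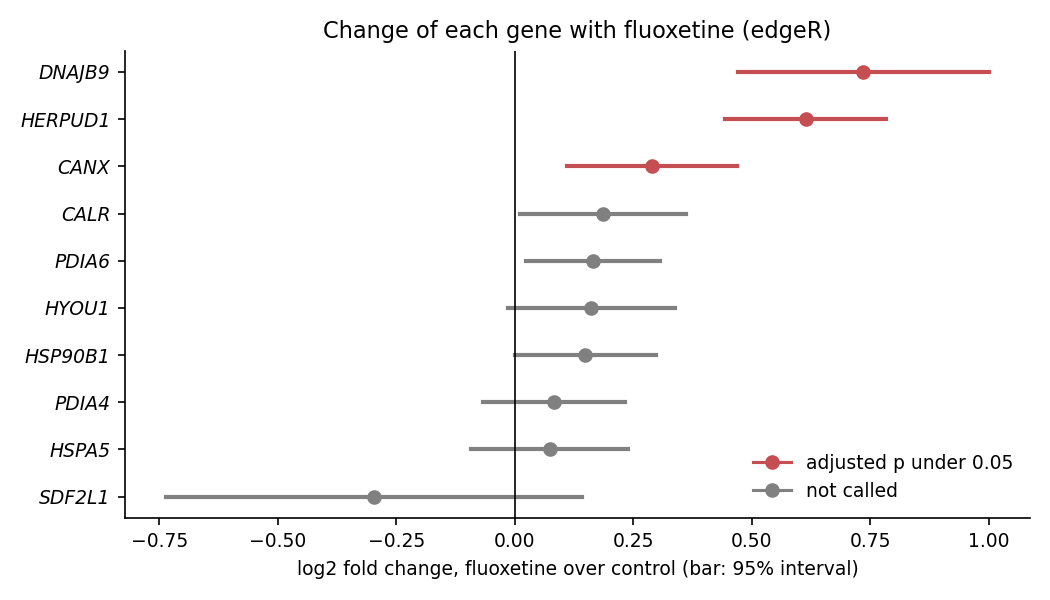
Log2 fold change of fluoxetine over control for each of the 10 genes (points) with its 95% interval (bars), from edgeR's quasi-likelihood fit to 3 libraries per group, red where the adjusted p was under 0.05. DNAJB9 (0.74), HERPUD1 (0.61) and CANX (0.29) were called, the intervals of CALR, PDIA6 and HSP90B1 also lie above 0 without a call, and SDF2L1 (-0.30) has the widest interval.

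As a list, 3 of the 10 genes were called, beside 13.1% of all genes. None reached a 2-fold change with an adjusted p under 0.05, as 1.39% of all genes did, 1.25% higher. At an unadjusted p under 0.05, 6 of the 10 were higher and 0 lower, beside 15.8% and 12.9% of all genes. The groups did not overlap in 5 of the 10, all of them higher in fluoxetine, beside 31.9% of all genes, 17.5% higher and 14.4% lower. The median SE of the log2 fold change was 0.078 for the 10 genes and 0.134 for all genes tested. A change of the same size is more readily called at a smaller SE, so all genes are not a like baseline for these shares. The median log2 fold change was 0.16 for the 10 genes and 0.03 for all genes tested, and 9 of the 10 were positive, beside 54.2% of all genes. By fitted change, DNAJB9 stood at percentile 96.2 of all genes tested, HERPUD1 at 94.3, CANX at 80.6 and CALR at 71.8. HSPA5 stood at percentile 54.95.

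The fluoxetine libraries were sequenced to 16157507 to 17113538 counts and the control libraries to 19343565 to 27823667, so every fluoxetine library was shallower. Mitochondrial genes took 8.13% to 8.89% of the counts and the 10 most abundant genes 8.49% to 9.19%, with overlapping ranges in the 2 groups. Thinning every library to 16157507 counts left the same number of the 10 genes called higher, 3. The keratins KRT8, KRT18 and KRT19 were abundant, while the epithelial markers EPCAM and CDH1 were at or near 0 counts, with 4 to 11 and 0 to 1 counts per library. KRT18 was called lower, by a log2 fold change of -0.72, and its part in the results was not tested. In bulk RNA, values are shares of a library, and fewer cells of a kind cannot be told apart from less RNA per cell.

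**Figure D3:**
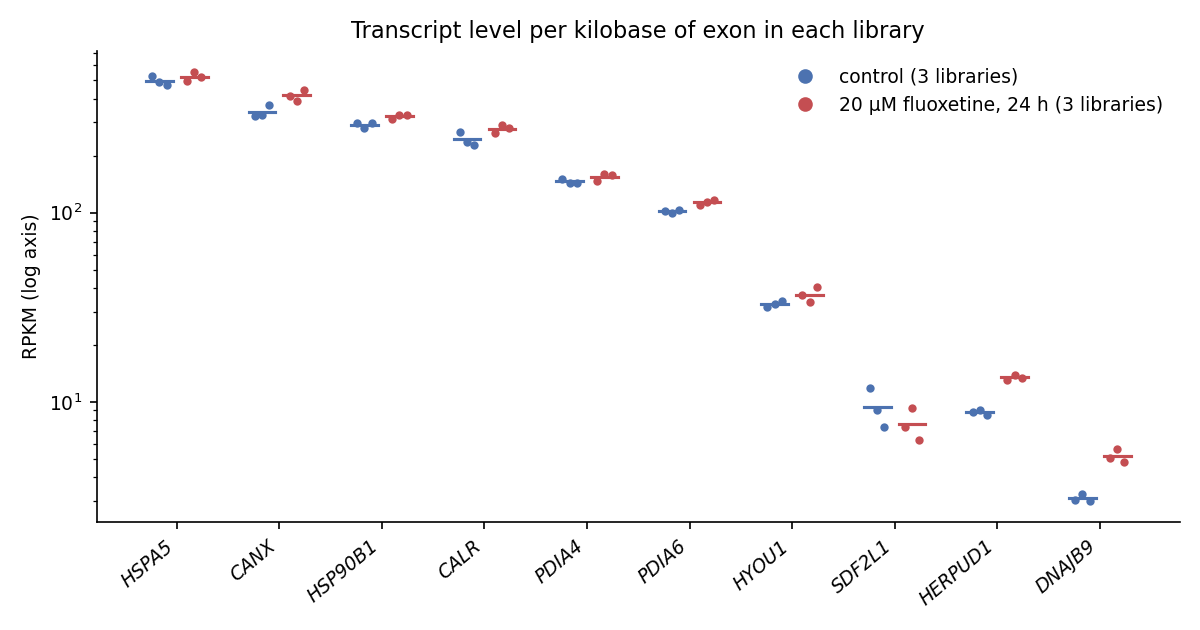
Level of each of the 10 genes per kilobase of exon (RPKM, log axis) in each library, control in blue and fluoxetine in red, with a line at the mean of 3 libraries. HSPA5 lies at the top and DNAJB9 at the bottom, and the groups separate visibly for HERPUD1 and DNAJB9.

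Per kilobase of exon, the levels in control cells spanned a 160-fold range. HSPA5 was the most abundant transcript of the 10 with 497 ± 29.5 RPKM (CPM per kilobase of exon, SD, n = 3), followed by CANX with 341 ± 25.3, HSP90B1 with 291 ± 11.0 and CALR with 244 ± 20.5. PDIA4 stood at 146 ± 4.31 RPKM, PDIA6 at 101 ± 1.66 and HYOU1 at 32.9 ± 1.27. The control ranges of neighbours in this order did not overlap down to HYOU1. SDF2L1 with 9.39 ± 2.23 RPKM and HERPUD1 with 8.79 ± 0.272 RPKM overlapped in control cells, and DNAJB9 was lowest with 3.10 ± 0.147 RPKM. SDF2L1 lay above HERPUD1 in 1 of the 6 libraries, control replicate 1 (11.8 against 8.81 RPKM). In fluoxetine, HERPUD1 reached 13.45 RPKM and SDF2L1 stood at 7.62 RPKM. DNAJB9 reached 5.16 RPKM and remained the lowest. The genes called with the largest changes were thus among the 3 with the lowest levels. Together, the 10 genes took 0.731%, 0.708% and 0.736% of all counts in the control libraries and 0.819%, 0.824% and 0.852% in the fluoxetine libraries. Without CANX, these shares were 0.532%, 0.504% and 0.506% in the control libraries and 0.555%, 0.581% and 0.573% in the fluoxetine libraries.

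Each gene was then set against a relative that does the same work outside the ER or beside it, as a log2 ratio of levels per kilobase inside each library, which does not depend on the scaling between libraries. In 8 of 12 such pairs every fluoxetine library lay above every control library, in 0 every one lay below and in 4 the groups overlapped. HSPA5, HSP90B1 and CANX each enter 2 of the pairs, so the pairs are not independent, and the shares of single genes whose groups were apart are no baseline for ratios. With 3 libraries against 3, the exact two-sided permutation test cannot give a p below 0.1, which those 8 pairs reached (adjusted p = 0.15 over the 12 pairs), so none could pass 0.05.

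HSPA5 against HSPA8, the constitutive Hsp70 of the cytosol, had log2 ratios of -0.53, -0.55 and -0.57 in the control libraries and -0.25, -0.24 and -0.25 in the fluoxetine libraries. The difference was 0.30, while HSPA5 itself had a fitted log2 fold change of 0.07 and HSPA8 one of -0.23 (adjusted p = 0.0648, edgeR, not called). HSPA8 was called in 4 of the 8 other fits and in 2 of the 6 fits with a library left out. Against HSPA9, the mitochondrial Hsp70, the difference was also 0.30. HSPA9 was itself called lower, with a log2 fold change of -0.22 (adjusted p = 0.0492, edgeR). It kept this call in 6 of the 8 other fits and in 2 of the 6 fits with a library left out. HSP90B1 moved by 0.50 against HSP90AB1 and by 0.41 against HSP90AA1, the cytosolic Hsp90 proteins, and HYOU1 by 0.39 against HSPH1, its cytosolic relative. In all 3 of these, the cytosolic gene was called lower (log2 fold changes of -0.35, -0.26 and -0.23). HSP90AB1 lost its call without fluoxetine replicate 1, HSP90AA1 without fluoxetine replicate 1, fluoxetine replicate 3 or control replicate 2, and HSPH1 without any fluoxetine replicate or control replicate 2, and with library size alone. These cytosolic chaperone genes are known to have processed pseudogenes, and how reads matching several places were counted was not given in the sources used here.

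DNAJB9 against DNAJB11, another J-domain partner of HSPA5, had log2 ratios of -1.25, -0.998 and -0.984 in the control libraries and -0.15, -0.06 and -0.33 in the fluoxetine libraries, a difference of 0.90. HERPUD1 against its paralogue HERPUD2 differed by 0.37, less than its own change, and HERPUD2 had a fitted log2 fold change of 0.24 (adjusted p = 0.140, edgeR, not called) with its groups apart. CANX differed by 0.38 against CLGN, a calnexin paralogue best known from the testis, with 6.62 to 7.67 CPM in control cells. In the other 4 pairs the groups overlapped. The difference was 0.10 for CANX against CALR (exact permutation p = 0.7), -0.01 for PDIA4 against PDIA3 (exact permutation p = 0.9), 0.08 for PDIA6 against P4HB (exact permutation p = 0.4) and -0.11 for SDF2L1 against SDF2 (exact permutation p = 0.6).

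**Figure D4:**
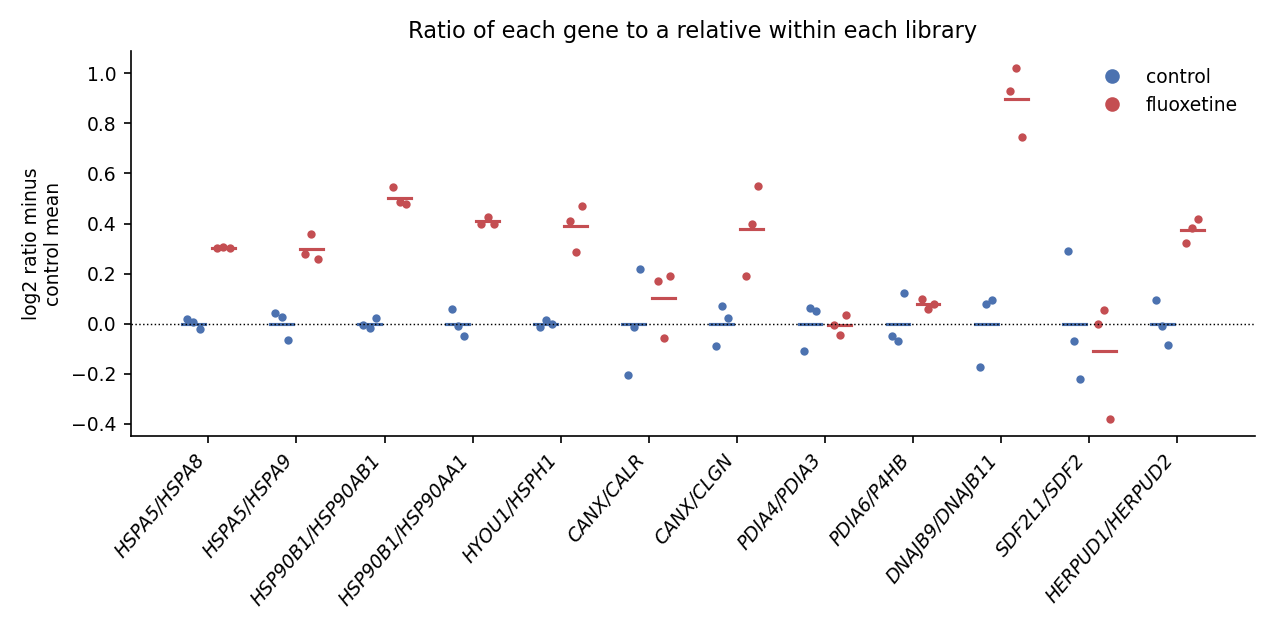
Log2 ratio of each gene to its relative within each library, drawn as the difference from the mean of the 3 control libraries, with control in blue, fluoxetine in red and a line at each group's mean. In 8 of the 12 pairs all fluoxetine points lie above all control points, with DNAJB9/DNAJB11 the furthest (0.90).

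Other genes of the same machinery were taken from 5 lists that hold 103 tested genes outside the 10. Of these, 3 were called higher and 3 lower (5.83%, beside 13.1% of all genes), with a median log2 fold change of 0.03, equal to that of all genes at this rounding. The counts depended on single libraries. Without control replicate 3 they were 9 higher and 13 lower, while without fluoxetine replicate 1, fluoxetine replicate 3 or control replicate 2 they were 1 higher and 1 lower. Without control replicate 1, 1 gene was lower, and without fluoxetine replicate 2, 5 were lower.

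Among 20 lumenal co-chaperones, DNAJC10, a J-domain reductase, was called higher (log2 fold change 0.27), and SERPINH1, the collagen chaperone HSP47, and MESD, the chaperone of LDL receptor family proteins, were called lower (-0.65 and -0.26). The median of that list was 0.00. SERPINH1 stood at 159, 145 and 130.3 CPM in the control libraries and 89.3, 96.8 and 90.95 CPM in the fluoxetine libraries, an adjusted p = 0.00120 from edgeR. DNAJC10 kept its call without control replicate 3 but lost it without any other library, with RLE scaling and in DESeq2. MESD lost its call without fluoxetine replicate 1 or 3 or control replicate 1 or 2. Among 17 genes of disulfide formation, TXNDC11 was called higher (0.33, not without fluoxetine replicate 1 or 3 or control replicate 2), 0 were lower, and the median was 0.09. Of 8 genes of the lectin cycle and of 25 genes of the translocon and oligosaccharyltransferase, edgeR called 0, with medians of -0.01 and 0.01. At an unadjusted p under 0.05 these held 0 higher and 1 lower, and 2 higher and 1 lower.

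In ER-associated degradation, RNF185 was called higher and AUP1 lower among 33 genes, whose median was 0.06. RNF185, a ubiquitin ligase of the ER membrane, stood at 36.5, 36.4 and 40.1 CPM in the control libraries and 53.0, 55.7 and 54.4 CPM in the fluoxetine libraries, a log2 fold change of 0.53 (SE 0.08) with an adjusted p = 0.00307 from edgeR. AUP1, which recruits ubiquitin-conjugating enzyme to lipid droplets and the ER, had a log2 fold change of -0.34, a call lost without fluoxetine replicate 1 or 3 or control replicate 1 or 2. Further genes of these lists that are known to rise with the chaperones in ER stress were named after their values were seen. None was called, and their values lay on both sides of 0. SEL1L had a log2 fold change of 0.32, EDEM1 of 0.27, EDEM3 of 0.36, ERO1B of 0.37 and DNAJC3 of 0.28. Their adjusted p in edgeR lay between 0.0576 and 0.165. In the 8 other fits, EDEM3 was called in 3, SEL1L and ERO1B in 2 each, and EDEM1 and DNAJC3 in 1 each. In the 6 fits with a library left out, SEL1L and EDEM3 were called in 2 each, EDEM1 and DNAJC3 in 1 each and ERO1B in 0. SYVN1 had a log2 fold change of 0.04, DERL3 of 0.02, CRELD2 of 0.07, DNAJB11 of -0.17, SELENOS of -0.19 and MANF of -0.25, with adjusted p from 0.205 to 0.991 in edgeR.

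Upstream of these genes, EIF2AK3, which encodes PERK, rose by a log2 fold change of 0.91, from 10.2, 11.8 and 12.97 CPM in the control libraries to 21.4, 21.6 and 23.0 CPM in the fluoxetine libraries (adjusted p = 0.00101, edgeR's quasi-likelihood test). CREB3L2, an ER-tethered factor related to ATF6, was called higher by 0.41, a call lost without fluoxetine replicate 1 or 3 or control replicate 1 or 2. ERN1, at 0.42 (adjusted p = 0.0528, edgeR), ATF6, at 0.09, and XBP1, at 0.12, were not called. In the 8 other fits ERN1 was called in 3, and in the 6 fits with a library left out in 1, while ATF6 and XBP1 were called in 0. In the list of 11 sensors and factors, EIF2AK3 and CREB3L2 were the 2 called higher, and 0 were lower. This was 18.2% of the list, beside 13.1% of all genes, and the median was 0.11. RNA counts per gene do not show the splicing of XBP1 or the cleavage of ATF6. Among 17 genes of the ATF4 and CHOP branch, NUPR1 (3.0), DDIT3 (1.23), ATF3 (0.94) and TRIB3 (0.48) were called higher and 0 lower. This was 23.5% of the list, beside 13.1% of all genes, and the median was 0.32. NUPR1 rested on 6 to 8 counts per control library and 37 to 47 per fluoxetine library. It was thus not tested in the fit with a minimum of 10 counts in each library. TRIB3 (adjusted p = 0.0443, edgeR) lost its call with RLE scaling, after thinning, and without fluoxetine replicate 1 or 2 or control replicate 2 or 3. ATF4 itself had a log2 fold change of -0.08 and was not called. Among 22 genes listed as chaperones of the cytosol and mitochondria, 0 were called higher and 8 lower, with a median of -0.22. The list includes HSPA13, which is known as a microsomal Hsp70. Its log2 fold change was 0.32 (adjusted p = 0.0605, edgeR, not called). Called genes made up 36.4% of this list, beside 13.1% of all genes, 5.32% lower. The median SE was 0.073 in this list and 0.134 over all genes, so this is not a like baseline either. DNAJA1 (-0.40), HSP90AB1 (-0.35) and HSPD1 (-0.34) were among the 8. The count of lower genes depended on single libraries. It was 1 without fluoxetine replicate 1, and 4 without fluoxetine replicate 3 or control replicate 2. It was 6 without control replicate 1, 9 without fluoxetine replicate 2 and 12 without control replicate 3.

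**Figure D5:**
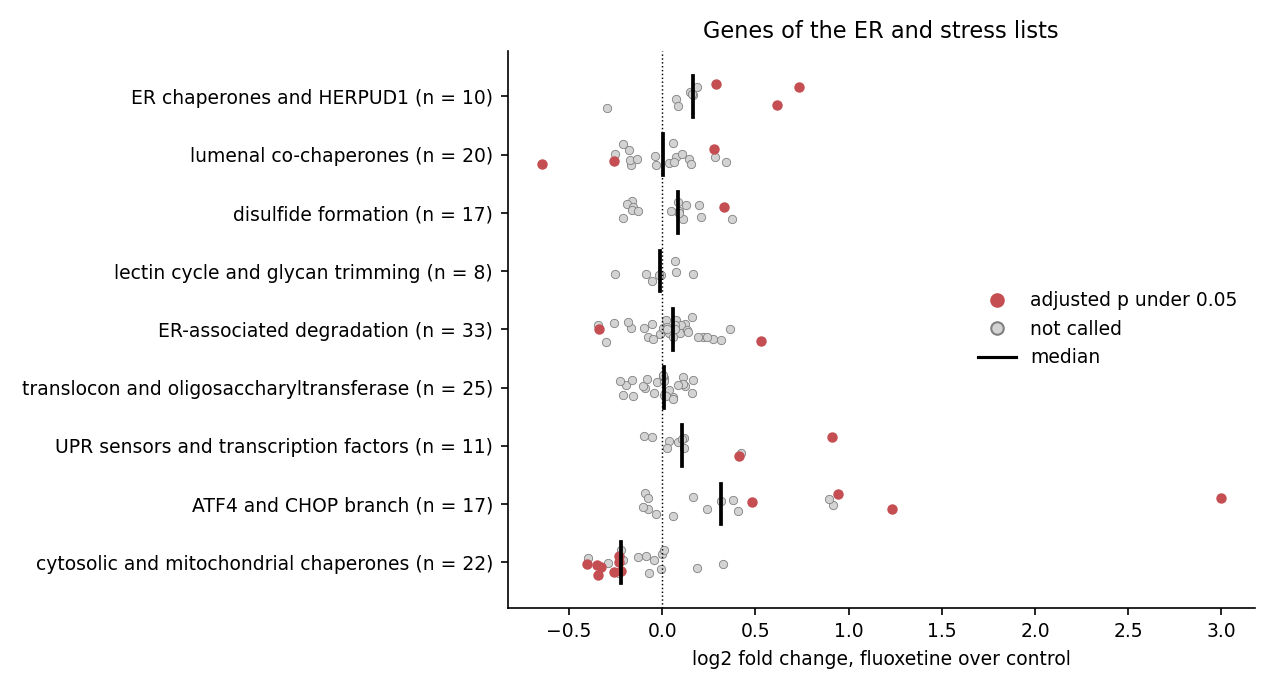
Log2 fold change of fluoxetine over control for each tested gene (points) of the 10 ER genes and of 8 lists, red where the adjusted p was under 0.05 in edgeR, with a black line at the median of each list. The medians run from -0.22 for cytosolic and mitochondrial chaperones to 0.32 for the ATF4 and CHOP branch, with 0.16 for the 10 genes.

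All tested genes whose promoter windows held the same elements, members included, were counted as a description, a list chosen after the data were seen. Of the 16 tested genes with ERSE, the 5 members included, 1 was called higher (CANX) and 0 lower, with a median log2 fold change of 0.13. This was 6.25%, beside 13.1% of all genes, 7.76% higher and 5.32% lower. Of the 13 tested genes with ERSE-II, the 3 members included, 3 were called higher (HERPUD1, NAV2 and PLS3) and 1 lower (SHCBP1). This was 30.8%, and the median was -0.04. Of the 21 tested genes outside the 10 with either element, 2 were called higher and 1 lower. This was 14.3%, near the share of all genes, with a median of 0.07. NAV2 and SHCBP1 were not called without fluoxetine replicate 1, nor PLS3 when any library but control replicate 3 was left out. HERPUD1, with 0.61, thus stood beside HYOU1 with 0.16 and SDF2L1 with -0.30, which hold the same ERSE-II letters, and DNAJB9, with 0.74, held neither element in this window.

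The genes outside the lists whose levels were most like those of the 10 were found by Pearson's r between a gene's log2 CPM over the 6 libraries and the mean of the standardized log2 CPM of the 10. The mean profile was -0.28, -0.80 and -0.78 in the control libraries and 0.24, 0.85 and 0.77 in the fluoxetine libraries, and control replicate 1 and fluoxetine replicate 1 lay nearest to the other group. The closest genes were CNNM2 (r = 0.997), RAB22A (0.994), SLC35C2 (0.991), MICU3 (0.991) and PPFIBP2 (0.990). Their log2 fold changes were 0.61, 0.34, 0.21, 0.51 and 1.05, and all but SLC35C2 were called higher. The call of CNNM2 was lost without control replicate 2, that of RAB22A without any fluoxetine replicate or control replicate 2, that of MICU3 when any of the 6 libraries was left out, and that of PPFIBP2 without fluoxetine replicate 3 or control replicate 2. The 6 points share their libraries and fall into 2 groups, so r is a description of this ranking only. Because the profile itself separates the groups, genes picked by such an r had to be higher in fluoxetine. Their changes and calls are therefore no separate result.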

How the data were processed

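RNA of 3 control and 3 fluoxetine libraries was sequenced as paired-end reads. The authors deposited 1 table of raw read counts for 31762 genes, without normalization or pooling. Its columns of the authors' own fold changes and p-values were not used. The submitters' processing notes name fastp 0.20.0, HISAT2 2.1.0, HTSeq 0.10.0 and DESeq2 1.18.1. The strand setting of the counting is not given in the sources used here. The files' gene coordinates had the same start and end as GENCODE release 29 (GRCh38) for 96.81% of the 31635 genes found there. Groups came from the treatment labels.

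The deposited counts were fitted in R 4.3.3 with edgeR 4.0.16 (TMM, filterByExpr, glmQLFit and glmQLFTest, no covariate), with Benjamini-Hochberg adjustment over the 15646 genes kept. CPM are TMM-scaled over those genes, and RPKM divides them by the union of GENCODE exons. Depth was 16157507 to 27823667 counts, at which 3 counts are worth 0.108 to 0.186 CPM, which covers counting error only. Replicates differed by more than sampling noise (chi-square per degree of freedom of 3.72 to 24.2 within a group), so none was merged. Pairs across the groups gave 22.8 to 52.0. Control replicates 1 and 3, at 24.2, thus differed by more than control replicate 2 and fluoxetine replicate 2, at 22.8. Genes named were the 10 members, their relatives, up to 3 called genes of each list by smallest p, 6 sensors and factors, and the 5 genes most like the members. Other genes named are overlapping neighbours, further called list genes or promoter genes, or are marked in the text. Where a symbol repeats, the row with the most counts was used. The members and lists were chosen with earlier results of these data known. Alternatives were DESeq2 1.42.0, limma-voom (limma 3.58.1), RLE scaling, library size only, no filter, a minimum of 10 counts in each library, a block for the replicate number, thinning to equal depth, other call rules and leaving out each library. The fits were tested on simulated counts. Promoters came from RefSeq. Protein sequences were not used here.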

Additional observations from a re-analysis of the deposited data

How the results depend on the processing

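Of the 10 ER genes, 2 to 3 were called higher and 0 lower in each of the 8 other fits and the 6 fits without 1 library. By call rule, 0 were higher at a fold change of at least 2, and 6 at an unadjusted p under 0.05. Their median log2 fold change ran from 0.12 to 0.19. For the 103 genes of the ER lists, with 3 called higher and 3 lower, the counts were 5 and 8 with no filter, 0 and 0 at a fold of at least 2, and 14 and 8 at an unadjusted p. Without 1 library they ran from 1 to 9 higher and from 1 to 13 lower. The cause was not tested.

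Whether the replicate numbers pair the libraries was not settled by the correlations between them. Deviations from the group means of same-numbered libraries correlated at 0.03, 0.12 and 0.39. Control replicates 2 and 3 correlated best with the fluoxetine library of their own number, but control replicate 1 did so with fluoxetine replicate 2 (0.32). With the replicate number as a block, edgeR called 4018 genes in place of 2047, the same number of the 10 genes (3), and 8 higher and 9 lower in the ER lists.

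Values near 0 changed sign when 1 library was left out. HSPA5 ran from -0.0014 to 0.0851, with the low value without fluoxetine replicate 2, and PDIA3 from -0.0005 to 0.1337, with the low value without control replicate 2. The ratio of CANX to CALR ran from -0.0017 to 0.2108, that of PDIA4 to PDIA3 from -0.0608 to 0.0245, and that of SDF2L1 to SDF2 from -0.2204 to 0.036, in fits of the ratios that were added after the data were seen. Of all called genes, 59.3% were higher, but 47.9% with no filter and 44.8% to 71.5% without 1 library. DESeq2 gave 51.1%, RLE scaling 53.1% and library size alone 64.3%. The shift of all genes between scalings stayed under 0.1. SDF2L1 and DNAJB9 held the fewest counts of the 10 genes, with 118 to 285 and 178 to 269 per library. Their coefficients of variation in the control group were 23.7% and 4.73%.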
